A study of Mus musculus with 4 samples.

Results

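The 8 genes examined here, *Arg1*, *Nos2*, *Mrc1*, *Retnla*, *Chil3*, *Trem2*, *Gpnmb* and *Folr2*, are widely used readouts of macrophage polarization and were taken from the 32285 genes of single-cell RNA-seq count matrices of mouse fracture callus. They were followed in the cells that held at least 1 unique molecular identifier (UMI, 1 counted mRNA molecule) of both *Csf1r*, the receptor for the growth factor CSF1, and *Cd68*, a lysosomal glycoprotein of phagocytes. This gate took 9065 of the 25479 cells that passed the cell filter, or 35.6%. It held 2945 of 5470 cells at 4 days post fracture (dpf) in control mice (control_4d), 1964 of 4110 in arthritic mice (RA_4d), 2599 of 7676 at 7 dpf in control mice (control_7d) and 1557 of 8223 in arthritic mice (RA_7d).

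All mice were wild-type C57BL/6J males whose tibia was fractured at 3 months of age, and callus was scraped from the periosteal surface and digested with collagenase P. The RA groups received intraperitoneal K/BxN serum, which transfers arthritis through the antibodies it carries so that the recipient does not raise the autoimmune response itself, and the control groups received PBS. Each group was 1 library. The design text describes a pool of 4 calluses a group, whereas the study's methods give 3 fractures a group and name no pool. The libraries were prepared from 10000 loaded cells with version 3.1 of the Chromium 3′ chemistry. Cells of 1 library are not replicates, so no test was made: the difference between groups and the difference between libraries cannot be told apart, and every interval below covers counting error only.

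Macrophages exposed to interferon gamma or bacterial products make the nitric oxide synthase Nos2, whereas interleukin-4 and interleukin-13, signalling through the transcription factor STAT6, induce arginase 1, the mannose receptor Mrc1 and the secreted proteins Retnla and Chil3. Nos2 and Arg1 draw on the same substrate, arginine. Trem2, a lipid receptor, and Gpnmb, a membrane glycoprotein of lysosome-rich cells, mark macrophages that take up lipid and debris, and Folr2, a folate receptor, marks resident tissue macrophages. In a healing fracture macrophages clear debris and support the soft callus that precedes bone.

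In the mm10 assembly (GRCm38) all 8 are protein-coding genes on separate chromosomes. *Arg1* lies at chr10:24915221-24927484 on the minus strand, *Nos2* at chr11:78920787-78960254 on the plus strand and *Mrc1* at chr2:14229392-14332057 on the plus strand. *Retnla* lies at chr16:48842551-48844461 on the plus strand, *Chil3* at chr3:106147554-106167564 on the minus strand and *Trem2* at chr17:48346401-48354147 on the plus strand. *Gpnmb* lies at chr6:49036546-49070929 on the plus strand and *Folr2* at chr7:101839988-101857194 on the minus strand. Reads of the 3′ chemistry come from the end of the transcript, so a level of one gene was compared between libraries and not with the level of another gene.

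The promoters of *Retnla* and *Chil3* are shown because these secreted genes had the largest differences between libraries and both are textbook targets of STAT6. The windows before the annotated start were read from RefSeq (GRCm38.p6), at chr16:48842359-48842550 on the plus strand for *Retnla* and at chr3:106167565-106167814 on the minus strand for *Chil3*. Capitals mark the letters that match a STAT-type motif, TTCNNNNGAA in *Retnla* and TTCNNNGAA in *Chil3*, each of which reads the same on both strands.
Retnla: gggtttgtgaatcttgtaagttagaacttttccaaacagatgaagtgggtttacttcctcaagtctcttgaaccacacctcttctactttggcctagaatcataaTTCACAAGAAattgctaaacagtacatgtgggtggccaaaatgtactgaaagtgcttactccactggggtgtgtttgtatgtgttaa
Chil3: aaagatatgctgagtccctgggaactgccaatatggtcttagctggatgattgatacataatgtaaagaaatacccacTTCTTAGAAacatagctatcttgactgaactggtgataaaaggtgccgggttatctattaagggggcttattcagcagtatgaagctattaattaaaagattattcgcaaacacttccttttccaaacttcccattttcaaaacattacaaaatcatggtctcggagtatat
The match began 87 bases before the start of *Retnla* given above, which is 145 bases before its RefSeq start. In *Chil3* it began 172 bases before the start. Windows of 250 bases were searched, of which the 192 before the start given above are shown for *Retnla*. Of 32817 promoter windows of 250 bases in the same table, 5.85% held TTCNNNNGAA and 7.01% held TTCNNNGAA, so a match is a common feature. Neither motif was in the windows listed for *Mrc1*, *Trem2*, *Gpnmb* and *Folr2*. No window was listed for *Arg1* and *Nos2*, so these were not searched.

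The gate was read against marker genes before the members were. The 6 macrophage markers summed to between 4243 and 6855 CPM (the UMIs of a gene scaled to the total of the gate cells), and 79.9% of gate cells lay in 3 macrophage-like clusters and 1 monocyte-like cluster, with 77.2 to 81.4% in each library. Other cell types were present in unequal amounts: 8 neutrophil markers summed to 408 CPM in control_4d, 5004 in RA_4d, 1885 in control_7d and 1475 in RA_7d, and 4 mesenchymal markers to 843, 584, 3187 and 6479 CPM. No marker of either list was at 0 in any library. Gate cells had median totals of 15341, 16039, 11944 and 12551 UMIs in the order control_4d, RA_4d, control_7d and RA_7d, which is used for every set of 4 values below. Scrublet called 3.94% of gate cells doublets, unevenly between libraries: 38 of 2945, 24 of 1964, 135 of 2599 and 160 of 1557 cells. Doublets were thus most frequent in RA_7d, and they were kept. RA_4d stood apart in its free RNA: *S100a8*, a neutrophil gene, had a UMI in 52.8% of its cells outside the gate and outside neutrophil and monocyte clusters, against 6.44 to 14.3% in the other libraries, and *Hbb-bs*, a globin gene, in 6.40% of its cells against 72.7 to 85.3%. Between 5 and 15 cell barcodes were shared by any pair of libraries after filtering.

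*Arg1*, the arginase that turns arginine into ornithine, was lower in arthritic than in control callus at both times and lower at 7 than at 4 dpf under both treatments. Its level in the gate was 291 CPM (95% interval 287 to 296) in control_4d, 73.8 (71.0 to 76.7) in RA_4d, 90.4 (87.4 to 93.5) in control_7d and 35.7 (33.3 to 38.2) in RA_7d. The highest value belonged to the control library at 4 dpf and the lowest to the arthritic library at 7 dpf, and no interval met another. On the scale of log2(CPM + 1), RA was below control by −1.97 (−2.04 to −1.92, the interval being that of the ratio of the UMIs themselves) at 4 dpf, a 3.91-fold difference, and by −1.32 (−1.45 to −1.23) at 7 dpf. From 4 to 7 dpf the difference was −1.68 (−1.74 to −1.64) in control and −1.03 (−1.16 to −0.93) in RA. The last of these fell short of 2-fold in 5 of the 10 alternatives run, among them −0.85 without doublets and −0.95 with looser cell limits.

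*Arg1* differed both in how many cells held the transcript and in how many copies they held. At least 1 UMI was found in 39.8% (38.0 to 41.6), 23.6% (21.8 to 25.6), 16.6% (15.2 to 18.1) and 10.5% (9.05 to 12.2) of gate cells, and with every cell thinned to 4000 UMIs in 27.5, 13.3, 11.2 and 5.65%. Cells with at least 10 UMIs made up 14.2, 3.41, 3.85 and 1.67%. RA_4d and control_7d changed places between share and level, so no order was read between them. Cells outside the gate gave a floor below these shares in every library. Of endothelial-like cells, with median totals of 13597 to 20275 UMIs, 3.21, 1.69, 0.680 and 0.414% had an *Arg1* UMI. This background was itself highest in control_4d. The share was 4.665, 2.05, 3.415 and 1.36% in mesenchymal-like cells. In natural killer-like cells, at a median of 6602 to 8924 UMIs, it was 6.90, 3.77, 1.95 and 2.465%. A minority of cells carried the transcript, with the top 10% of gate cells holding 73.9 to 99.0% of its UMIs.

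**Figure D1:**
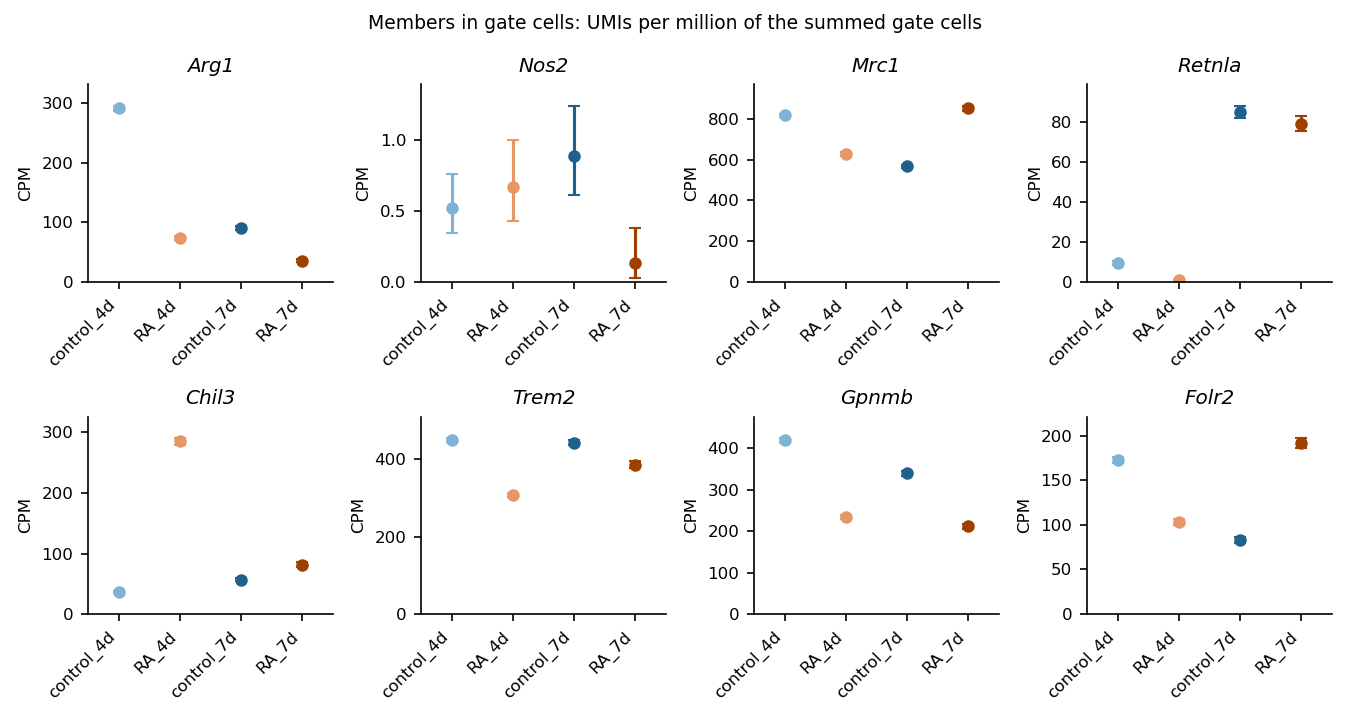
Level of each of the 8 genes in the *Csf1r* and *Cd68* gate (y axes, CPM of summed UMIs, each starting at 0) in the 4 libraries (x axes), with exact 95% Poisson intervals as bars. *Arg1* was highest in control_4d at 291 CPM, *Chil3* in RA_4d at 286 CPM, and *Retnla* was at 85.3 and 79.1 CPM in both 7 dpf libraries.

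*Arg1* was lower in RA within each macrophage-like cluster too. Clusters were made without the 8 members among the variable genes. In cluster 0, a macrophage-like cluster led by *Spp1* and *Mmp12* beside *Arg1* itself, the gate cells held 703, 208, 250 and 135 CPM. RA was below control there by −1.75 (−1.83 to −1.69) at 4 dpf and −0.88 at 7 dpf. In the remaining macrophage-like clusters, cluster 3 led by the antigen presentation genes *H2-Aa* and *Cd74* and cluster 5 led by *Ccl8* and *Cbr2*, the differences were −0.57 and −1.30 at 4 dpf and −1.43 and −2.65 at 7 dpf. Left without cluster 0, the gate gave −1.74 at 4 dpf and −1.70 at 7 dpf, from 91.7, 26.7, 27.9 and 7.89 CPM. The RA_7d value was near the 7.54 CPM of natural killer-like cells outside the gate in that library, where endothelial-like cells held 0.284 CPM. The part of free RNA in these differences was not tested. The share of gate cells in cluster 0 was itself 37.7, 33.0, 32.5 and 26.7%.

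*Nos2*, the enzyme that makes nitric oxide from arginine and the defining gene of the interferon type of activation, was almost absent from the gate. It gave 27, 24, 33 and 3 UMIs in total, or 0.522 (0.344 to 0.760), 0.672 (0.430 to 0.9996), 0.886 (0.610 to 1.25) and 0.131 (0.0271 to 0.384) CPM. Those UMIs lay in 21, 16, 20 and 3 cells, 0.713, 0.815, 0.770 and 0.193% of the gate, and no gate cell held more than 4. Mesenchymal-like cells outside the gate, at a median of 22235 to 29222 UMIs, had a *Nos2* UMI in 3.85, 1.47, 1.46 and 1.05% of cells. These shares were higher than the gate's, but the cells were also deeper, and the difference did not hold per UMI or after thinning in every library. Mesenchymal-like cells held 2.60, 0.509, 1.35 and 0.580 CPM. These values lay above the gate's intervals in control_4d, control_7d and RA_7d. In RA_4d, where 5 mesenchymal-like cells held a UMI, the value lay within the gate's interval. In control_4d the thinned share was 0.170% in the gate against 0 of 493 mesenchymal-like cells, which allows up to 0.746%. Natural killer-like cells, at a median of 6602 to 8924 UMIs, had a *Nos2* UMI in 1 of 154 cells in control_7d. None of 87, 159 and 284 such cells in control_4d, RA_4d and RA_7d had one, which allows shares of up to 4.15, 2.29 and 1.29%. Endothelial-like cells outside the gate held 8.99 to 19.3 CPM, far above the gate. The few *Nos2* UMIs of the gate were therefore not shown to exceed the level in mesenchymal-like or natural killer-like cells. No difference between libraries was read from them.

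The *Nos2* transcript of the callus lay elsewhere. Of its 908 UMIs in all filtered cells, 61.6% were in cluster 6, an endothelial-like cluster led by *Gpihbp1* and *Cldn5*, where its level was 15.1, 14.7, 28.7 and 15.3 CPM. The gate held 12.8, 17.9, 9.62 and 1.36% of each library's *Nos2* UMIs. Within cluster 6 the log2 difference of RA from control was −0.04 (−0.46 to 0.37) at 4 dpf and −0.86 (−1.23 to −0.59) at 7 dpf. In the gate the 4 dpf difference was 0.14, with an interval of −0.49 to 1.21 for the UMI ratio. At 7 dpf the genes compared had to reach 50 UMIs over both libraries and *Nos2* did not. Its 3 UMIs against 33 gave a log2 ratio of −2.76 with an interval of −5.11 to −1.08. Those 3 UMIs lay in gate cells of the endothelial-like clusters 6 and 22, of which 2 were called doublets.

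*Retnla*, which encodes a secreted protein known as RELM alpha, was a transcript of very few cells, some of which held many copies. Its level was 9.49 (8.67 to 10.4), 0.700 (0.453 to 1.03), 85.3 (82.3 to 88.3) and 79.1 (75.5 to 82.9) CPM, from 491, 25, 3175 and 1809 UMIs. These came from only 21, 6, 47 and 28 cells, 0.713, 0.306, 1.81 and 1.80% of the gate. The median over the cells with a UMI was only 2, 2.5, 7 and 3.5 UMIs. The single cell with the most held 229, 14, 556 and 454 UMIs, and the 3 cells with the most held 89.8, 84.0, 47.8 and 63.7% of the library's total in the gate. Both 7 dpf libraries were above both 4 dpf libraries by level and by share of cells. At most 0.340% of the endothelial-like cells of a library outside the gate had a *Retnla* UMI. In control_7d the share was 0.813% of mesenchymal-like and 0.649% of natural killer-like cells outside the gate. In RA_7d these shares were 0.438 and 0.352%.

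The time difference of *Retnla* was 3.04 in control (UMI ratio 3.03 to 3.31) and 5.56 in RA (6.25 to 7.45 for the UMI ratio, which has no pseudocount). At 4 dpf RA was below control by −2.63, and at 7 dpf by −0.11. Intervals from Poisson counting are too narrow for a gene whose UMIs come in so few cells. Without the 3 cells with the most UMIs in each library the level was 0.968, 0.112, 44.6 and 28.8 CPM. The time differences were then 4.54 and 4.74, but the 4 dpf difference between RA and control was −0.82 and no longer past 2-fold, nor was it with a pseudocount of 10 CPM, at −0.87. The 7 dpf difference turned to 0.13 without doublets and was −2.67 as the mean over clusters. Of all *Retnla* UMIs in filtered cells 77.6% were in cluster 3, and all of the 3 highest cells in each 7 dpf library were in that cluster.

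*Chil3*, a chitinase-like secreted protein also known as Ym1, had the largest difference between arthritic and control callus among the 8 genes at 4 dpf on the log2(CPM + 1) scale. Its level was 36.3 (34.7 to 38.0), 286 (280 to 291), 56.4 (54.0 to 58.9) and 81.6 (78.0 to 85.4) CPM, and RA_4d stood above the other libraries by a wide margin. RA exceeded control by 2.94 (2.90 to 3.05) at 4 dpf, or 7.68-fold, and by 0.53 (0.44 to 0.62) at 7 dpf. From 4 to 7 dpf the level was 0.62 (0.55 to 0.73) higher in control and −1.79 (−1.88 to −1.74) lower in RA. A *Chil3* UMI was found in 16.3% (14.98 to 17.7), 38.1% (36.0 to 40.3), 9.50% (8.403 to 10.7) and 8.99% (7.62 to 10.5) of gate cells, and in 7.33, 23.4, 6.16 and 5.85% after thinning.

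The neutrophil sum of the gate was highest in RA_4d, as *Chil3* was, and *S100a8* and *S100a9* held 2601 and 2309 of its 5004 CPM there. *Ly6g*, *Cxcr2* and *Retnlg* were highest in RA_4d too. *Mpo*, *Elane* and *Csf3r* were instead highest in RA_7d, with log2 differences of RA from control at 4 dpf of only 0.05, 0.09 and 0.10. Outside the gate and outside neutrophil and monocyte clusters too, *S100a8* was most widespread in RA_4d. At 7 dpf the sum was lower in RA (1475 CPM) than in control (1885 CPM), as were *S100a8*, *S100a9*, *Ly6g*, *Cxcr2* and *Retnlg*. *Mpo*, *Elane* and *Csf3r* were higher in RA at 7 dpf, and so was *Chil3*. The part of neutrophil transcripts in that difference of *Chil3* was not tested. Over all filtered cells 71.2% of *Chil3* UMIs were in the neutrophil-like cluster 17, led by *Camp* and *S100a9*, and 13.5% in the monocyte-like cluster 13, led by *Ly6c2*. The neutrophil-like cluster gave 11, 43, 30 and 9 cells to the gate. Endothelial-like cells outside the gate had a *Chil3* UMI in 1.22, 5.49, 0.453 and 0.248% of cells, a background that was itself highest in RA_4d. It lay below the gate's share in every library.

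The 4 dpf difference of *Chil3* was smaller without the cells of the neutrophil program but stayed past 2-fold. It was 2.34 without the neutrophil-like cluster, at 31.1 CPM in control_4d and 162 in RA_4d, 2.13 in the macrophage-like clusters alone, and 2.15 in gate cells with no UMI of *S100a8* or *S100a9*, of which RA_4d had 407 and control_4d 2264. By cluster it was 2.26 in cluster 0, 2.16 in cluster 3, 1.63 in cluster 5 and 1.64 in the monocyte-like cluster, where the gate cells held 517, 1617, 413 and 696 CPM. The part of free RNA within these cells was not tested. The time difference in control was 0.62 with the neutrophil-like cells, −0.00 without their cluster and −0.57 in the macrophage-like clusters alone. The difference of RA from control at 7 dpf was −0.11 in the macrophage-like clusters alone.

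*Mrc1*, the mannose receptor that takes up glycoproteins, differed by less than 2-fold in every comparison, and the side on which RA lay changed with time. Its level was 818 (810 to 826), 628 (620 to 636), 567 (559 to 574) and 853 (841 to 865) CPM. Control_4d and RA_7d were the highest and lay close together, and RA_4d and control_7d were lower. RA was below control by −0.38 (−0.41 to −0.36) at 4 dpf and above it by 0.59 (0.56 to 0.62) at 7 dpf, neither past 2-fold. Its share of gate cells was 76.6% (75.0 to 78.1), 69.0% (67.0 to 71.1), 75.8% (74.1 to 77.4) and 77.3% (75.2 to 79.4), against 11.5, 10.8, 8.61 and 7.37% of endothelial-like cells outside the gate.

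*Folr2*, which binds folate and marks resident macrophages, had the same shape with larger differences. Its level was 173 (169 to 176), 103 (99.5 to 106), 83.1 (80.2 to 86.1) and 192 (186 to 198) CPM. RA was below control by −0.74 (−0.81 to −0.69) at 4 dpf and above it by 1.20 (1.14 to 1.27) at 7 dpf, 2.29-fold. Over time it was lower by −1.05 (−1.12 to −0.997) in control and higher by 0.89 (0.84 to 0.96) in RA. The control value was short of 2-fold in 7 of the 10 alternatives run, down to −0.82 with each cell weighted equally. A *Folr2* UMI was present in 54.2% (52.3 to 56.0), 43.3% (41.1 to 45.6), 37.2% (35.3 to 39.1) and 50.03% (47.5 to 52.6) of gate cells, in 33.2, 24.7, 21.4 and 33.8% after thinning, and in 1.06 to 3.06% of endothelial-like cells outside the gate. The lower value at 4 dpf and the higher one at 7 dpf were seen in detection as well as in level.

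Within the macrophage-like clusters *Folr2* differed in the same directions. RA was below control at 4 dpf by −0.12 in cluster 0, −0.75 in cluster 3 and −0.64 in cluster 5, and above it at 7 dpf by 0.69, 0.89 and 1.04. Cluster 5 held 51.0% of all *Folr2* UMIs and 44.6% of all *Mrc1* UMIs and made up 20.2, 18.7, 15.9 and 21.1% of the gate. For *Mrc1* the 4 dpf differences in these clusters were 0.10, −0.50 and −0.13 and the 7 dpf differences −0.09, 0.62 and 0.40, so cluster 0 did not follow the gate as a whole.

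**Figure D2:**
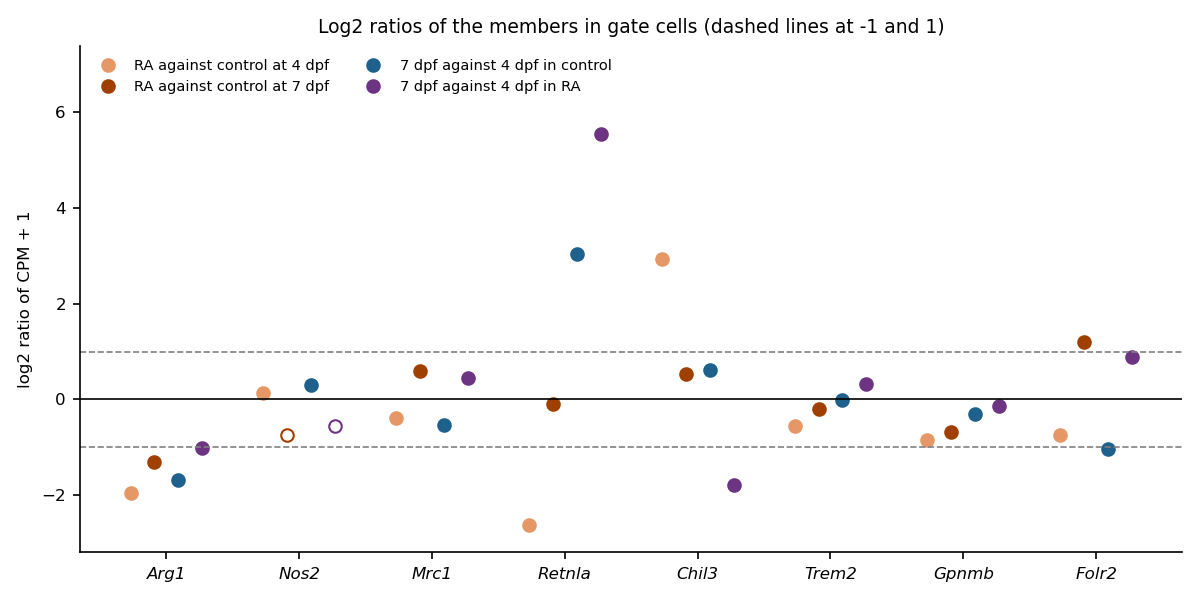
Log2 difference (y axis, log2 ratio of CPM + 1) of each gene in the gate (x axis) for RA against control at 4 and 7 dpf and for 7 against 4 dpf in control and RA, with dashed lines at a 2-fold difference and hollow points where a gene had under 50 UMIs over both libraries. *Chil3* reached 2.94 at 4 dpf, *Folr2* changed side from −0.74 at 4 dpf to 1.20 at 7 dpf, and *Retnla* was above 3 in both time comparisons.

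*Trem2*, a receptor for lipids and apolipoproteins that signals through Tyrobp, was among the most evenly spread members. Its level was 450 (444 to 456), 308 (302 to 313), 443 (436 to 450) and 387 (379 to 395) CPM. Both control libraries overlapped within their intervals and both RA libraries were lower. RA was below control by −0.55 (−0.58 to −0.52) at 4 dpf and −0.20 (−0.23 to −0.16) at 7 dpf. A UMI was found in 88.8% (87.6 to 89.9), 83.3% (81.6 to 84.9), 86.7% (85.3 to 88.0) and 82.9% (81.0 to 84.8) of gate cells, against 2.40 to 5.81% of endothelial-like cells outside it.

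*Gpnmb*, found on lysosome-rich macrophages and osteoclasts, was lower in RA at both times. Its level in the gate was 419 (414 to 425), 233 (228 to 238), 340 (334 to 346) and 212 (206 to 218) CPM, so both RA libraries lay below both control libraries. RA was below control by −0.84 (−0.88 to −0.81) at 4 dpf and −0.68 (−0.73 to −0.63) at 7 dpf, short of 2-fold, and by −0.76 and −0.85 in the macrophage-like clusters alone. As a mean over clusters that weigh the same the 4 dpf difference was 0.56. The gate's share of cells with a UMI was 44.7% (42.9 to 46.5), 41.1% (38.9 to 43.3), 46.8% (44.9 to 48.8) and 38.0% (35.5 to 40.4), with 3.17 to 5.55% of endothelial-like cells outside it. Mesenchymal-like cells outside the gate, which were deeper, had one in 44.0, 58.7, 24.3 and 61.6% of cells. After thinning these shares were 11.8, 25.8, 8.37 and 26.6%, against 31.1, 25.6, 34.9 and 24.5% in the gate. Cluster 5 at 4 dpf was an exception among the macrophage-like clusters, with RA above control by 0.35 (0.25 to 0.46), whereas at 7 dpf the difference there was −1.64. RA was also above control at 4 dpf in gate cells of the monocyte-like cluster 13, by 3.08 (2.10 to 4.76). In cluster 8, which had no name, it was above by 2.29 (1.16 to 4.51). The control UMIs were only 6 and 5 in these clusters. In cluster 0, cluster 3 and the osteoclast-like cluster 10 the differences were −0.825, −1.08 and −0.49.

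In the mesenchymal-like clusters 2 and 4 *Gpnmb* was instead higher in RA at both times. Of their cells 1.75 and 3.15% were in the gate, and these are included here. Over all filtered cells the level was 63.0, 110, 34.0 and 113 CPM in cluster 2 and 19.7, 60.1, 16.1 and 75.9 CPM in cluster 4. RA was above control by 0.79 (0.64 to 0.97) and 1.56 (1.30 to 1.92) at 4 dpf and by 1.71 (1.60 to 1.87) and 2.17 (2.03 to 2.44) at 7 dpf. A tenocyte-like cluster held 233, 260, 94.5 and 281 CPM. The gate held 90.4, 82.9 and 86.5% of a library's *Gpnmb* UMIs in control_4d, RA_4d and control_7d but 37.9% in RA_7d, where mesenchymal cells were also the most numerous.

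The members were counted beside all genes of the same sums, with past 2-fold meaning a log2 difference of at least 1 in size. At 4 dpf 3 of 8 members passed between RA and control (*Chil3* higher, *Arg1* and *Retnla* lower), where 1.02% of 14093 genes did, 0.575% higher and 0.447% lower. At 7 dpf 2 of the 7 that reached 50 UMIs passed (*Folr2* higher, *Arg1* lower), where 3.01% of 14137 genes did, 2.21% higher and 0.792% lower. Between times 3 of 8 passed in control, with *Retnla* higher and *Arg1* and *Folr2* lower, where 5.88% of 14512 genes did, 5.6% higher and 0.283% lower. In RA 3 of 7 passed, with *Retnla* higher and *Arg1* and *Chil3* lower, where 12.9% of 13823 genes did, 10.6% higher and 2.23% lower. The median over all genes tested was 0.02 to 0.03 in the 4 comparisons. The time comparisons use the same libraries as the comparisons of RA with control and are no further evidence for them.

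Members were next counted per cell. A gate cell held a UMI of 3.22, 3.00, 2.75 and 2.70 of the 8 genes on average, and 2.35, 2.03, 2.09 and 2.04 after thinning to 4000 UMIs. The most in any cell was 7, seen in 3 cells of RA_4d. Between 3.82 and 4.65% of gate cells in a library had none of the 8.

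*Mrc1* and *Folr2* were joined in every library. The odds of a *Folr2* UMI were 8.44, 9.45, 7.89 and 10.3 times as high in cells with an *Mrc1* UMI as in cells without one, and 5.28 to 6.99 times after thinning. Cells with a *Folr2* UMI held 1201, 1098, 898 and 1310 CPM of *Mrc1*, and cells without one 323, 274, 369 and 395 CPM. The odds ratio differed little between the libraries. As both genes lead cluster 5, this also describes that cluster.

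*Trem2* was joined to both groups of genes. Its odds ratio with *Gpnmb* was 7.74, 3.34, 6.31 and 3.47 (2.77 to 3.42 after thinning), with *Mrc1* 6.76, 3.13, 4.403 and 3.65 (2.40 to 3.11) and with *Folr2* 9.93, 6.05, 4.59 and 4.62 (1.74 to 3.53). Cells with a *Trem2* UMI held 462, 269, 389 and 246 CPM of *Gpnmb* against 22.3, 39.1, 20.9 and 41.3 CPM in cells without. *Gpnmb* and *Folr2*, in contrast, had odds ratios of only 1.29 to 1.65, and 0.775 to 1.47 after thinning.

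*Arg1* and *Nos2*, the textbook opposites, could not be read as a pair. Only 7 cells of control_4d, 6 of RA_4d, 4 of control_7d and 0 of RA_7d held both, with odds ratios of 0.782 to 2.01 over the 4 libraries. The RA_7d value, 1.21, rests on a small constant added to each count. The few *Nos2* UMIs of the gate were not shown to exceed the level in mesenchymal-like or natural killer-like cells.

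*Arg1* was not set apart from *Mrc1* in control callus or at 4 dpf, but was so in RA_7d. The odds ratio of the pair was 1.27, 1.40 and 1.05 in control_4d, RA_4d and control_7d and 0.288 in RA_7d, or 1.11, 1.51, 0.931 and 0.198 after thinning. In RA_7d cells with an *Mrc1* UMI held 21.4 CPM of *Arg1* and cells without one 84.0 CPM, whereas in control_4d these were 313 and 228 CPM. Cells with an *Arg1* UMI held 131, 126, 87.2 and 102 CPM of *Folr2* and cells without 199, 96.0, 82.3 and 202 CPM, so *Folr2* was lower beside *Arg1* in control_4d and RA_7d but not in RA_4d and control_7d. Only 164 cells of RA_7d held *Arg1*.

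**Figure D3:**
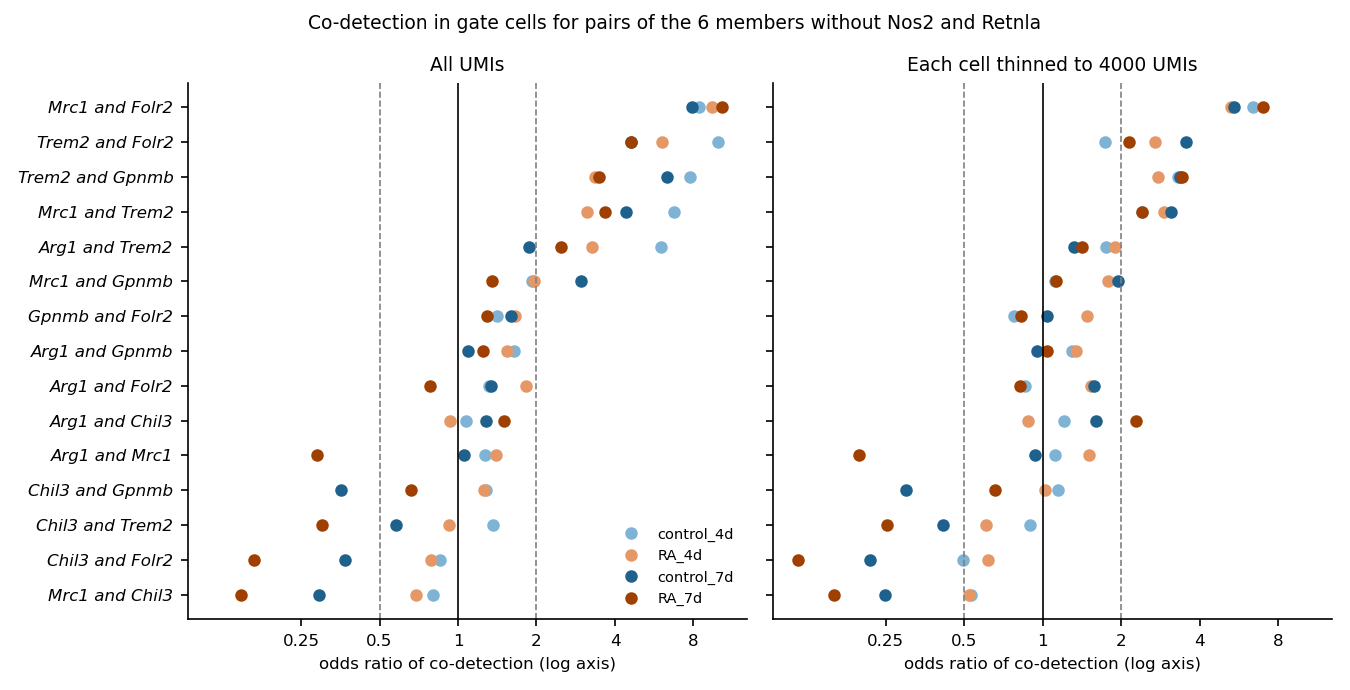
Odds ratio of co-detection (x axis, log scale, lines at 0.5, 1 and 2) for the pairs of 6 of the genes, without *Nos2* and *Retnla* (y axis), 1 point a library, from all UMIs on the left and with each gate cell thinned to 4000 UMIs on the right. *Mrc1* with *Folr2* lay between 7.89 and 10.3 in all 4 libraries, whereas *Arg1* with *Mrc1* was near 1 in control_4d, RA_4d and control_7d and at 0.288 in RA_7d.

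*Chil3* was found apart from the receptors, most clearly at 7 dpf. Its odds ratio with *Mrc1* was 0.800, 0.691, 0.293 and 0.147 and with *Folr2* 0.853, 0.784, 0.369 and 0.166. Cells with a *Folr2* UMI held 22.6, 59.6, 7.98 and 6.64 CPM of *Chil3*, and cells without one 54.1, 456, 85.3 and 157 CPM. Over the 28 pairs, 7 had an odds ratio past 2-fold in 1 direction in all 4 libraries from all UMIs: *Mrc1* with *Folr2*, *Trem2* and *Retnla*, *Trem2* with *Folr2* and *Gpnmb* above 1, and *Retnla* with *Chil3* and *Gpnmb* below 1. After thinning 4 of these did so: *Mrc1* with *Folr2*, *Mrc1* with *Trem2*, *Trem2* with *Gpnmb*, and *Retnla* with *Gpnmb*. The pairs with *Retnla* rest on 6 to 47 cells a library, and after thinning on 8, 3, 32 and 22. Where no cell held both genes, the odds ratio rests on a small constant added to each count. This was so for *Retnla* with *Gpnmb* in RA_4d and for *Retnla* with *Chil3* in RA_4d, control_7d and RA_7d. The odds ratio of *Mrc1* with *Retnla* rests on that constant in control_4d and RA_4d, where all 21 and all 6 cells with *Retnla* also held *Mrc1*. *Nos2* with *Retnla* also passed after thinning, but no cell of any library held both, so it was not read.

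Taken over *Arg1*, *Mrc1*, *Trem2*, *Gpnmb* and *Folr2* at once, *Mrc1*, *Trem2* and *Folr2* without the others were found in 15.9, 13.9, 12.1 and 23.7% of gate cells (13.01, 8.71, 8.89 and 16.8% after thinning). This was the most frequent pattern from all UMIs in control_4d, RA_4d and RA_7d but not in control_7d. All 5 together were found in 11.3% of control_4d cells, 6.21% of RA_4d, 3.62% of control_7d and 1.80% of RA_7d. *Mrc1* with *Trem2* and *Gpnmb* alone made up 6.86, 8.96, 17.3 and 9.89%. Cells with all 5 were fewest in RA_7d, the library with the fewest *Arg1* cells.

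The clusters within the gate differed in the members they held. Pooled over libraries, cluster 0 held the most *Arg1*, at 410 CPM, and *Gpnmb*, at 757 CPM. Cluster 5 held the most *Mrc1*, at 1908 CPM, and *Folr2*, at 415 CPM, and cluster 3 the most *Retnla*, at 149 CPM. *Trem2* was nearly level between clusters 0 and 5, at 574 and 579 CPM. This split depended on how the cells were clustered. Without integration of the libraries, over all filtered cells, *Gpnmb* was highest in the same cluster as *Mrc1*, *Folr2* and *Trem2*, at 492 CPM. *Arg1* was then highest in another macrophage-like cluster, at 261 CPM, and *Retnla* in a monocyte-like cluster, at 238 CPM. With integration at a resolution of 1, *Arg1* and *Gpnmb* again shared a cluster. Pooled in the same way, the osteoclast-like cluster 10 held 206 CPM of *Mrc1*, 243 of *Trem2*, 90.7 of *Gpnmb* and 49.7 of *Folr2*, but its 22 gate cells in RA_7d held 478 CPM of *Trem2*, 344 of *Gpnmb* and 160 of *Folr2*. It made up 10.1, 13.9, 6.46 and 1.41% of the gate, and the osteoclast markers of the gate summed to 995, 1336, 1462 and 363 CPM.

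**Figure D4:**
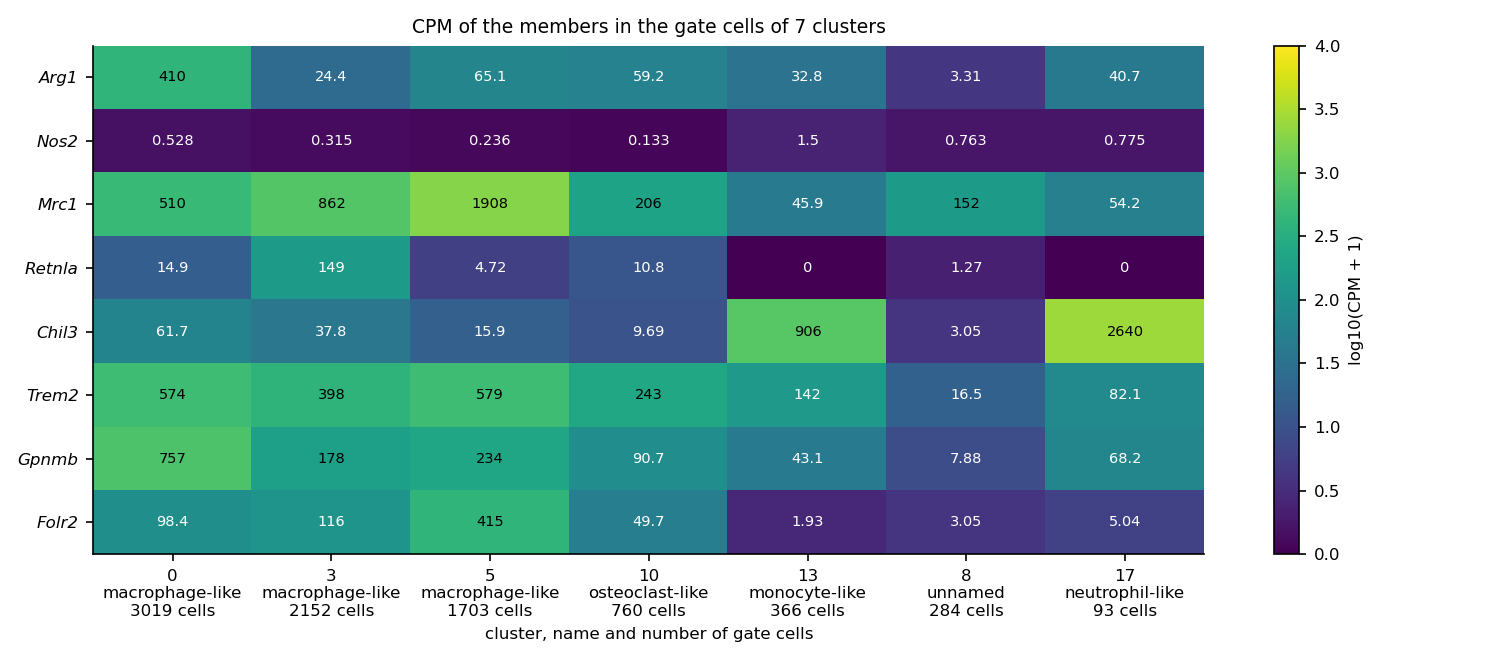
Heat map of the 8 genes (rows) in 7 clusters of gate cells pooled over the 4 libraries (columns), coloured by log10 of CPM + 1 with the CPM printed in each cell. *Arg1* and *Gpnmb* were highest in cluster 0 at 410 and 757 CPM, *Mrc1* and *Folr2* in cluster 5 at 1908 and 415 CPM, and *Chil3* in the neutrophil-like cluster 17 at 2640 CPM.

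**Figure D5:**
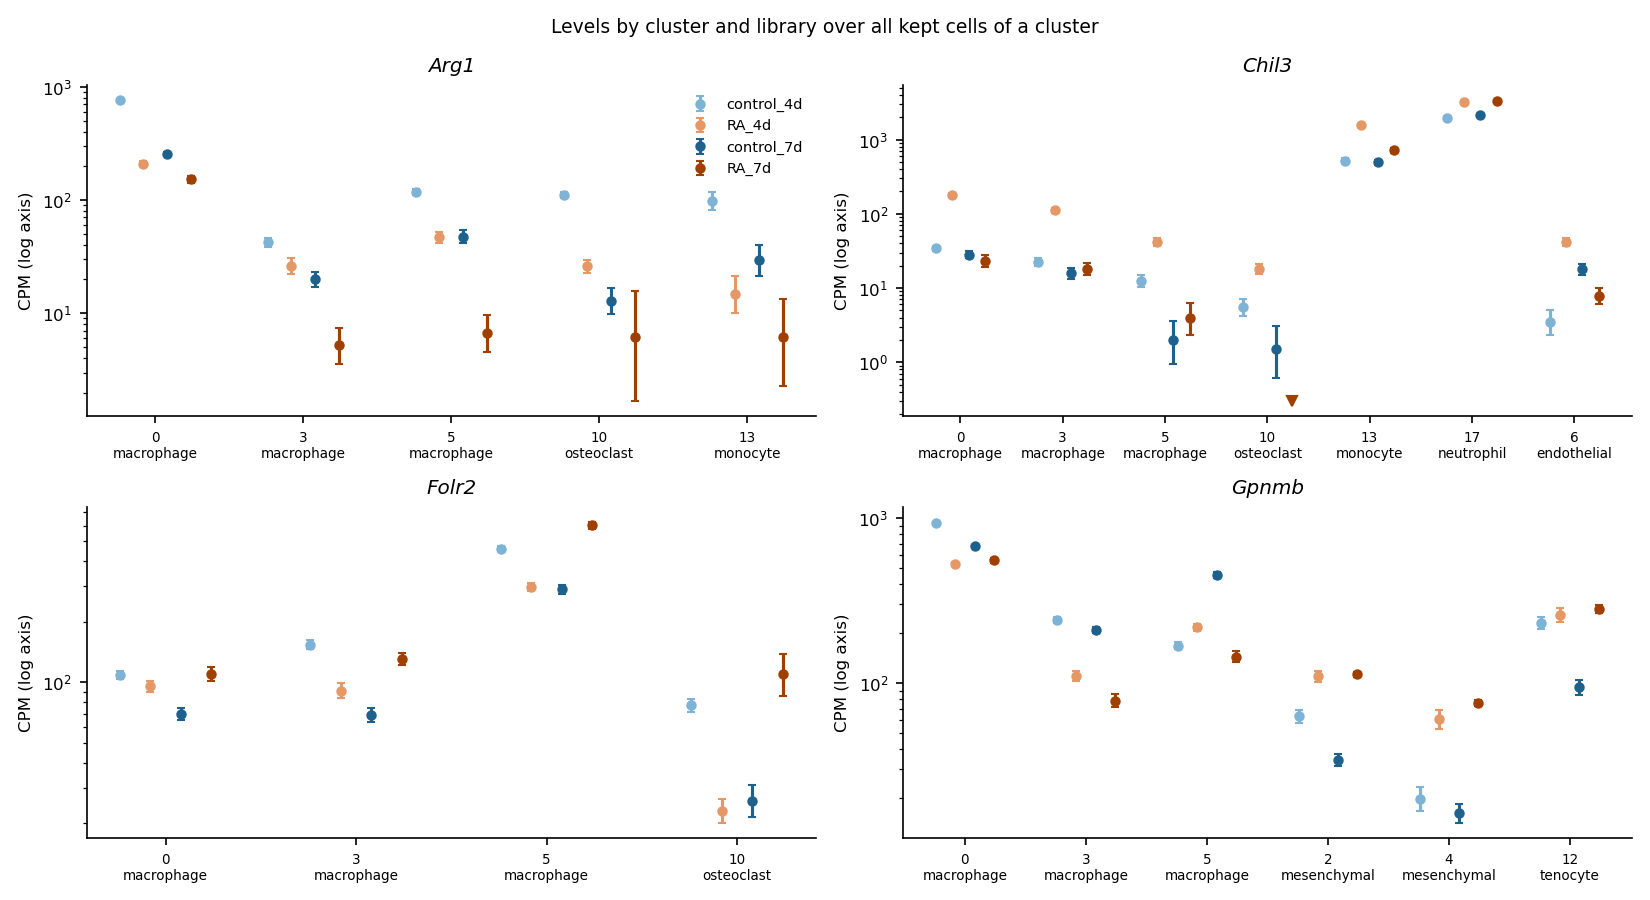
Level of *Arg1*, *Chil3*, *Gpnmb* and *Folr2* in clusters (x axis) by library over all filtered cells of a cluster (y axis, CPM on a log scale, with exact 95% Poisson intervals and a triangle where a library had no UMI). *Arg1* in cluster 0 was 756 CPM in control_4d against 152 to 256 CPM in the other libraries, and *Chil3* was highest in RA_4d in the macrophage-like and monocyte-like clusters.

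Of the wider programs, the list of resident macrophage genes holds *Folr2* and *Mrc1*. At 7 dpf 4 of its 18 measured genes were past 2-fold higher in RA, where 2.21% of all genes were, and 0 lower, with a median of 0.42 against 0.02 over all genes: *Folr2* itself, *C4b* (26.5 and 103 CPM in control_7d and RA_7d), the chemokine *Ccl8* (722 and 2025 CPM) and the haemoglobin scavenger receptor *Cd163* (7.44 and 33.6 CPM). The selenium carrier *Selenop* and the reductase *Cbr2* differed by 0.86 and 0.70, whereas the platelet factor *Pf4* was −0.42, at 1353 and 1014 CPM. At 4 dpf 4 of 19 were lower (*Lyve1*, *Cbr2*, *Vsig4* and *Ltc4s*) against 0.447% of all genes, with a median of −0.56. In control 6 of 19 were lower at 7 than at 4 dpf (0.283% of all genes), with a median of −0.79. In RA 4 of 18 were higher at 7 dpf (10.6% of all genes), and *Pf4* was −0.80. Genes that passed are named from all the lists after their values were seen.

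The interleukin-4 list gave no single direction. For this list and those that follow, the shares over all genes between RA and control were 0.575% higher and 0.447% lower at 4 dpf. At 7 dpf they were 2.21% higher and 0.792% lower. At 7 dpf the lectins *Clec10a* (32.3 and 104 CPM) and *Mgl2* (12.7 and 28.3 CPM) and the transcription factors *Egr2* and *Irf4* were past 2-fold higher in RA, and *Arg1* and *Ccl17* lower, of 19 measured, and the transglutaminase *Tgm2* was −0.68. At 4 dpf *Chil3* and *Ccl17* were higher and *Arg1*, *Retnla*, *Mgl2* and *Ccl24* lower, of 20. In the interferon gamma and LPS list *Cxcl9* alone passed at 4 dpf, of 19 genes, and was higher in RA. At 7 dpf *Il6* was higher and *Cxcl9* lower, of 18, all below 10 CPM. The median of this list was −0.09 at 4 dpf and 0.22 at 7 dpf, against 0.03 and 0.02 over all genes. Its costimulatory member *Cd86* was 134 and 200 CPM at 7 dpf, a difference of 0.58, and *Fcgr1*, *Socs3* and *Irf5* differed by −0.26, 0.20 and 0.115.

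In the lipid and lysosome list, which holds *Trem2* and *Gpnmb*, the secreted phosphoprotein *Spp1* went with *Arg1*, at 5414, 1493, 1673 and 933 CPM. It was the 1 gene of 21 past 2-fold at 4 dpf, and at 7 dpf *Fabp5*, a fatty acid carrier, and *Atp6v0d2*, an osteoclast proton pump subunit, were lower in RA by −1.07 and −1.36, with *Lpl*, the lipoprotein lipase, at 0.95 and *Spp1* at −0.84. Of the arginine genes *Arg1* was again the only one past 2-fold between RA and control, of 15 at 4 dpf and 14 at 7 dpf. *Sms*, *Odc1*, *Oat* and *Oaz1*, genes of polyamine and ornithine metabolism, differed by −0.46, −0.30, 0.14 and −0.13 at 7 dpf. *Arg2*, the mitochondrial arginase, was at 12.3, 14.3, 14.8 and 12.4 CPM.

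Of 17 measured receptors for polarizing ligands 0 were past 2-fold between RA and control at either time. At 7 dpf *Il6st*, the signalling chain of the interleukin-6 receptor, was 51.7 and 91.5 CPM, a difference of 0.81, and *Tgfbr2*, *Tgfbr1*, *Il6ra* and *Tlr4* differed by 0.51, −0.41, 0.39 and 0.31. *Il4ra*, the receptor chain shared by interleukin-4 and interleukin-13, was 101, 91.9, 88.0 and 88.2 CPM. Of 9 measured ligands 0 passed at 4 dpf and 3 at 7 dpf, where 2.21% of all genes were higher. These were *Il33*, *Tslp* and *Il6*, all higher in RA_7d and all at 16.4 CPM or less, and *Tgfb1* was 0.10. The mesenchymal markers of the gate were also highest in RA_7d, and their part in this was not tested. Of 10 measured paralogs of the members, *Retnlg*, a granulocyte gene, was 13.01, 45.5, 34.0 and 0.525 CPM, past 2-fold at both times. *Chil1* and *Trem3* were past 2-fold higher in RA at 4 dpf, by 1.48 and 1.15, and *Treml2* lower at 7 dpf, by −1.06.

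Over gate cells, *Mrc1* ran most closely with *Selenop*, *Maf* and *Slc9a9*, with mean within-library Pearson correlations of log(1 + UMIs per 10000) of 0.73, 0.68 and 0.66. *Folr2* ran with *Cbr2* (0.61), *Ccl8* (0.55) and *Mrc1* (0.53). *Trem2* ran with the cathepsins *Ctsb* (0.59) and *Ctsd* (0.58) and with *Apoe* (0.56), and *Gpnmb* with *Fabp5* (0.58), *Psap* (0.54) and *Ctsd* (0.53). *Chil3* ran with *Hp* (0.47) and *Ly6c2* (0.45), and *Arg1* with the glycolytic enzyme *Pgk1* (0.42, from 0.33 to 0.57 over the libraries). For *Nos2* and *Retnla* no gene reached 0.3 in every library. These are descriptions over 9065 cells that share libraries and depth.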

How the data were processed

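Callus of 4 groups of mice was profiled by 10x Genomics single-cell RNA-seq, 1 library a group. The authors aligned reads to mm10 and made the deposited UMI count matrices with Cell Ranger 7.0.1, and no value was normalized before deposit. Of 34038 barcodes, 25479 were kept with the cut-offs that the study's methods state: a total from 4000 up to 50000 UMIs, from 2000 up to 7000 detected genes, and no more than 8% of UMIs from mitochondria. Gate cells held at least 1 UMI of *Csf1r* and of *Cd68*. Their UMIs (51719247, 35725749, 37229209 and 22862973 in control_4d, RA_4d, control_7d and RA_7d) were summed per library and scaled to CPM, and log2 ratios used a pseudocount of 1 CPM over genes with at least 50 UMIs in both libraries together. Ratios were past 2-fold at a log2 size of 1. Levels have exact Poisson, shares Clopper-Pearson and ratios exact conditional 95% intervals (scipy 1.17.1). PCR duplicates were removed by UMI, and intervals leave out differences between animals.

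Seurat 5.3.0 (CCA integration, 2000 variable genes without the 8 members, 15 components, resolution 0.5) gave 23 clusters, named from listed markers. Doublets were called with Scrublet in scanpy 1.11.5 and kept. The scripts were tested on simulated data. Correlates were named by rule: the 3 highest mean correlations among genes found in at least 5% of gate cells, if at least 0.3 in every library. Genes of lists were named if among the 5 largest 7 dpf differences of genes that reached 50 CPM in either library. Those past 2-fold between RA and control were added after values were seen, and 1 gene that the rule takes is not reported here. The members and the gene lists were chosen with earlier results of these data known.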

Additional observations from a re-analysis of the deposited data

Results flagged for a closer look

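Of the 8 genes, 3 had counting intervals on opposite sides of 0 in comparisons of the same kind. *Folr2* was −0.744 log2 in RA against control at 4 dpf and 1.20 at 7 dpf, and from 4 to 7 dpf it was −1.05 in control and 0.894 in RA. *Mrc1* was −0.381 at 4 dpf and 0.589 at 7 dpf between RA and control, and −0.529 in control and 0.441 in RA between times. *Chil3* was 0.622 between times in control and −1.79 in RA. The control value was −0.00 without the neutrophil-like cluster and −0.57 in the macrophage-like clusters alone. Each side of such a difference is 1 library against 1 library, so the difference itself was not tested. The osteoclast-like share of the gate and its mesenchymal markers differed between the same libraries. In the macrophage and monocyte clusters alone, *Folr2* was −0.56 and 1.15 between RA and control at 4 and 7 dpf and −0.95 and 0.76 between times in control and RA, and *Mrc1* was −0.19, 0.55, −0.45 and 0.29.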

How the results depend on the processing

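No paired analysis was possible because each group had 1 library, and for the same reason no replicate could be left out. The number of members past 2-fold (2 or 3) stayed within 1.5 times under every alternative run, and no value past 2-fold changed sign. *Arg1* in RA and *Folr2* in control between times and *Retnla* at 4 dpf fell short of 2-fold under some, as given with their values. The background moved more. At 4 dpf 144 genes passed, and 37 with a pseudocount of 10 CPM. At 7 dpf 425 passed, against 134 in macrophage and monocyte clusters only, 91 with a pseudocount of 10 CPM and 279 with each cell weighted equally. In control between times 853 passed, against 506 with a looser cell filter, 508 with all deposited barcodes, 157 in macrophage and monocyte clusters only, 531 without doublets and 214 with a pseudocount of 10 CPM. In RA between times 1779 passed, against 435, 1132 and 556 in those clusters, without doublets and with that pseudocount. Without doublets the 7 dpf calls were 164 higher and 145 lower, against 313 higher and 112 lower. TMM scaling shifted log2 ratios by 0.04 to 0.11. Of 320 values of single members under these alternatives, 143 moved by less than their interval, 177 by more, and 20 changed sign. Of the 143, 32 came from a minimum of 10 UMIs, which changes the genes compared and cannot move a log2 ratio. Thinning kept the direction of detection in 29 of 32 comparisons, the exceptions being *Retnla* at 7 dpf and *Trem2* in both time comparisons. Alternatives chosen after seeing the data were those of *Chil3*, *Retnla*, *Arg1* and *Gpnmb* without named clusters or cells.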
